A study of Drosophila melanogaster with 7 samples.

Results

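The subject here is where ASH2 peaks lay inside the domains of the repressive mark H3K27me3 in wing imaginal discs, the larval epithelial sacs from which the adult wing forms. Chromatin of Drosophila larvae of the third instar raised on standard medium was immunoprecipitated and sequenced (ChIP-seq), and the labels name no genotype, allele or treatment for any library. There were 7 libraries, 1 for each of 6 targets (ASH2, H3K27me3, H3K4me3, H3K36me3, and RNA polymerase II phosphorylated at serine 5 or serine 2 of its C-terminal repeat) and 1 of input DNA, which was not analysed here. The authors deposited for each target 1 list of peak starts and ends (dm3), with no height, score or read count, so depth is unknown. The name ASH2 rests on the label alone: the antibody's catalogue number is that of a product against the HA tag, and a tagged fly line is not mentioned. With 1 library per target no test between replicates exists. Intervals are 95% intervals, exact for shares, densities, ratios and medians and Newcombe's for differences of shares, except for the width difference (below). They cover the counting of peaks only, neighbouring peaks are not independent of each other, and values for the 5 chromosome arms show how far each result varies within the lists.

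H3K27me3 peaks were joined over gaps of up to 5000 bp, and the 1215 joined regions of 5 kb or more, of 3800 in all, are the domains described here. They had a median length of 12.4 kb (interquartile range 7.55 to 25.6) and a longest of 267.9 kb, held 18700 of the 22620 H3K27me3 peaks and covered 28.5 Mb. H3K27me3 peaks made up 10.8 Mb, or 37.8%, of that length and the gaps between them 17.7 Mb, or 62.2%. An ASH2 peak was placed by its midpoint. Of 31582 ASH2 peaks, 8957 (28.4%) had it in a domain, 4734 of them on an H3K27me3 peak and 4223 in a gap, and 22625 lay outside these domains. The list gave 85 of the 8957 a width of 0 bp, and these were kept.

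H3K27me3 is laid down by Polycomb repressive complex 2, spreads over long stretches of developmental genes and is read by further Polycomb group proteins that keep those genes silent. ASH2 belongs to the opposing trithorax group: it is a core subunit of COMPASS-type complexes, which methylate lysine 4 of histone H3, and H3K4me3 marks active promoters. Polycomb and trithorax group proteins are both known to bind within silenced loci, at Polycomb response elements, short regulatory sequences with few stable nucleosomes. The peaks of a broad mark do not fill its domain, so a protein within a domain can lie on the called mark or in the breaks between its peaks.

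ASH2 was denser on H3K27me3 peaks than in the gaps between them. On the peaks there were 438.7 ASH2 midpoints per Mb, and in the gaps 238.04 per Mb, a ratio of 1.84 (1.77 to 1.92). Put as shares, 52.9% of the ASH2 peaks in domains (51.8 to 53.9) fell on the 37.8% of bases that were H3K27me3 peaks. Outside the domains the density was 250.1 per Mb, so the gaps were close to the level of the rest of the lists and the peaks were above it. Covered length gave the same order. ASH2 covered 11.2% of on-peak bases and 6.65% of gap bases, a ratio of 1.69, and 8.53% of bases outside. The 412 ASH2 peaks on H3K27me3 peaks that belonged to no such domain had a density of 421 per Mb, near that of on-peak sequence within domains.

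Each arm showed the same direction, with different levels. On 2L the density was 524 per Mb on peaks and 299.1 in gaps. On 2R it was 402.5 and 245.3, on 3L 506.6 and 289 and on 3R 416.2 and 233.4. The X chromosome had the lowest values in both places, 351.5 and 181.5 per Mb. The ratio ran from 1.64 on 2R (1.46 to 1.84) to 1.94 on the X (1.76 to 2.14). Outside domains the arms were alike, at 242.8 to 257.6 per Mb, so the gap density was above the outside density on 2L and 3L, nearly equal to it on 2R and below it on 3R and the X.

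**Figure D1:**
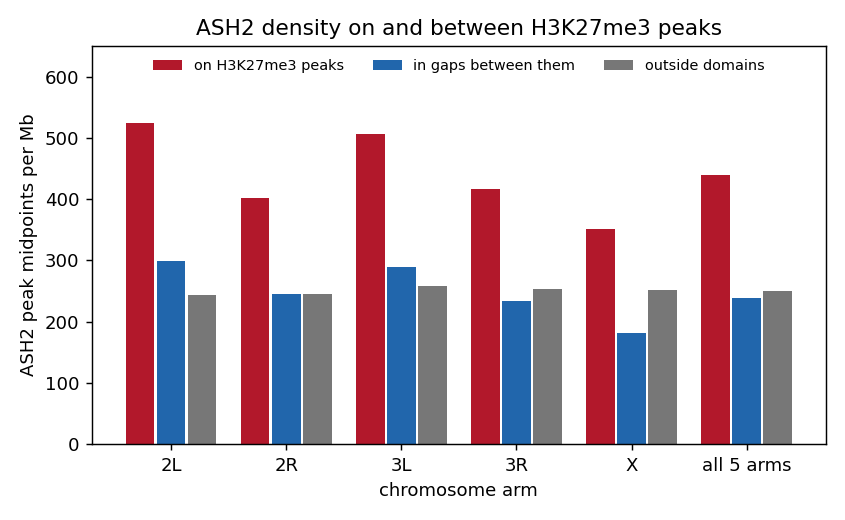
ASH2 peak midpoints per Mb (vertical axis) on H3K27me3 peaks, in the gaps between them inside domains of 5 kb or more, and outside these domains, for each chromosome arm and all arms together. On every arm the on-peak bar is the highest; over all arms the values are 438.7, 238.04 and 250.1 per Mb.

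The higher density on peaks was also present within single domains. Domains that are densely marked could also be richer in ASH2, so the base share was taken domain by domain. The expected on-peak share was then 40.6%, against 52.9% observed, and the density ratio stratified by domain (Mantel-Haenszel) was 1.88. It was 1.18 in the first 50% of ASH2 entries and 3.15 with gaps of up to 1000 bp joined. Among the 106 domains with 20 or more ASH2 midpoints, 94 (88.7%) had an on-peak share above their base share, with a median ratio of 2.08 (interquartile range 1.41 to 3.33). Of the 473 domains with 5 or more, 344 (72.7%) had it. No ASH2 midpoint fell in 224 domains. These were mostly short, since 32.6% of the domains of 5 to 10 kb lacked one, 16.7% of those of 10 to 20 kb and none of the 127 of 50 kb or more.

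Long domains held more ASH2 per Mb, and the increase was larger on the H3K27me3 peaks than in the gaps. The on-peak density was 358.9 per Mb in domains of 5 to 10 kb and 330.05 in those of 10 to 20 kb. It was 401.2 in domains of 20 to 50 kb, 403.8 in those of 50 to 100 kb and 562.5 in the 43 domains of 100 kb or more. The gap density over the same 5 classes lay between 216.5 and 262.8 per Mb. The ratio was 1.58 (1.36 to 1.83) in the shortest class and 2.14 (1.97 to 2.33) in the longest, while the share of bases on H3K27me3 peaks was 20.2% and 51.6%.

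The 5 longest domains all had more ASH2 on the mark than the base share, to different degrees. In the longest, on 3R from 6253738 to 6521660, 94 of 146 ASH2 midpoints lay on H3K27me3 peaks, which made up 46.2% of its length (ratio 2.10). The second, on 2L from 14368772 to 14605179, had 100 of 159 on peaks that made up 45.03% (ratio 2.07). The third, on 2L from 21762696 to 21980556, had 71 of 88 on 55.4% of its length (ratio 3.37). The fourth, on 3L from 12530964 to 12724137, had nearly all of its ASH2 on the mark, 94 of 101 on 62.4% of its length (ratio 8.10), and the fifth, on 2L from 11284982 to 11475930, had 84 of 96 on 59.4% (ratio 4.78). In the order of length, 17 of 146, 7 of 159, 7 of 88, 17 of 101 and 5 of 96 of these peaks carried an active mark. Over all domains the share was 9.84%, so the longest domains lay on both sides of it.

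The extremes among the 106 domains show the span, although each rests on few peaks in 1 of the places. The highest ratio, 15.4, was on 3L from 14088045 to 14182820, where 27 of 28 ASH2 midpoints lay on H3K27me3. It was followed by a domain on 2R from 1595235 to 1640346 (25 of 27, ratio 10.3) and one on the X from 16000455 to 16116714 (43 of 45, ratio 9.24). At the other end, a domain on the X from 3755667 to 3805616 had 3 of 20 midpoints on peaks that made up 31.8% of its length (ratio 0.379). A second on the X, from 1149536 to 1234711, had 4 of 26 (ratio 0.436), and one on 3R from 22593004 to 22685104 had 2 of 24 (ratio 0.590). These domains were picked for their ratios, which are therefore a description only.

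Pooled over H3K27me3 peaks and gaps of all sizes, ASH2 was densest a short way inside a peak boundary and sparsest a short way outside it. Positions far from a boundary exist only in long peaks or long gaps. The profile therefore mixes position with size, and these were not separated. Midpoints 100 to 400 bp inside a boundary had a density of 542.4 per Mb (521.5 to 563.9), those in the outermost 100 bp of a peak 393.3 (372.2 to 415.4) and those more than 400 bp inside 319.9 (299.4 to 341.4). In the gaps, the first 100 bp had 250.5 per Mb (233.8 to 268.1). The next stretch, 100 to 500 bp from the boundary, had 198.5 (188.4 to 208.9), and positions beyond 500 bp had 273.1 (261.05 to 285.5). In steps of 100 bp, the highest density was 590.2 per Mb at 200 to 300 bp inside and the lowest was 183.5 at 300 to 400 bp outside. Exact coincidence of boundaries was rare. Of the 8957 ASH2 peaks, 6 began and 7 ended at the same base as an H3K27me3 peak, and 2.27% and 2.45% did so within 10 bp.

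**Figure D2:**
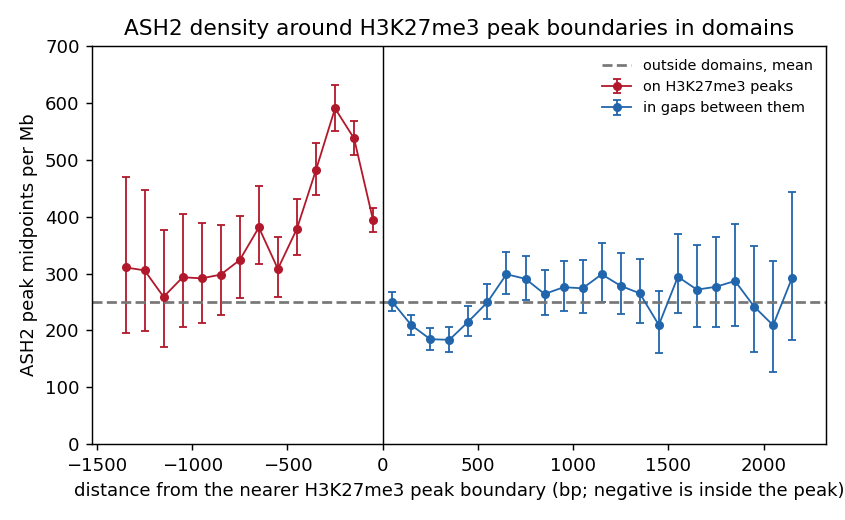
ASH2 peak midpoints per Mb (vertical axis) against the distance in bp from the nearer boundary of an H3K27me3 peak (horizontal axis, negative inside the peak), in steps of 100 bp that hold 20 or more midpoints, with exact 95% intervals; the dashed line is the mean outside domains, 250.1 per Mb. The density is highest at 200 to 300 bp inside, 590.2 per Mb, and falls to 183.5 at 300 to 400 bp outside before it rises again, to 298.8 per Mb in the step centred at 650 bp, above the dashed line.

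The size of the H3K27me3 peak or of the gap went with these values. Midpoint density was 657 per Mb (504.9 to 840.5) on H3K27me3 peaks under 100 bp and 630.7 (541.7 to 730.2) on those of 100 to 200 bp. It was 524.1 on those of 200 to 500 bp, 469.02 on those of 500 to 1000 bp and 317.9 (295.1 to 342.1) on those of 2000 bp or more. The share of their length that ASH2 covered varied less, from 12.6% on peaks of 200 to 500 bp to 9.03% on the longest. In gaps the density was not ordered by size throughout. It was 182.8 per Mb (87.7 to 336.1) in gaps under 100 bp, from 10 midpoints, and 189.9 (139.5 to 252.5) in those of 100 to 200 bp, with 7.93% and 4.95% of their length under ASH2. From 200 bp upward it was higher in longer gaps. Gaps of 200 to 500 bp had 145.3 midpoints per Mb (128.3 to 163.9) and 4.37% of their length under ASH2, whereas gaps of 2000 to 5000 bp had 263.8 (253.03 to 274.8) and 7.68%. Of the 17485 gaps (median 575 bp), 2933 (16.8%) held an ASH2 midpoint, and of the 18700 H3K27me3 peaks (median 377 bp) 4058 (21.7%) did. Within H3K27me3 peaks of 200 to 500 bp, 64.2% of the ASH2 midpoints (61.6 to 66.8) lay in the central 50% of the peak. In those of 2000 bp or more, 44.2% (40.5 to 47.9) did.

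From the edge of a domain to its centre, ASH2 density changed little once peaks and gaps were kept apart. A domain begins and ends with an H3K27me3 peak by construction, so both places were profiled separately. In the gaps, the outer 25% on either side had 241.8 midpoints per Mb and the central 50% had 234.2, a ratio of 1.03 (0.972 to 1.10, arms 0.921 to 1.13). On the H3K27me3 peaks the values were 427.6 and 449.1, a ratio of 0.952 (0.899 to 1.01), which was below 1 on all 5 arms (0.914 to 0.981). Both intervals include 1. In the first 50% of ASH2 entries the on-peak ratio was 0.904 (0.821 to 0.996), and in the first 50% of both lists 0.882 (0.793 to 0.980). These intervals lie below 1, and those of the other alternatives include it. In 5 steps from edge to centre, the on-peak density was 403.5, 426, 461.6, 465.6 and 435.6 per Mb, lowest in the outermost step of relative position. The gap density stayed between 232.6 and 244.1 per Mb.

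**Figure D3:**
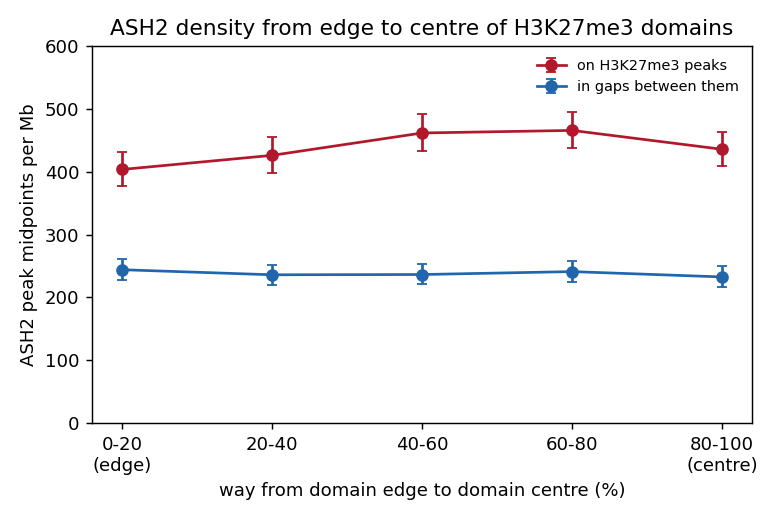
ASH2 peak midpoints per Mb (vertical axis) in 5 equal steps from the edge to the centre of each H3K27me3 domain (horizontal axis, percent of the way), separately for H3K27me3 peaks and the gaps between them, with exact 95% intervals. The on-peak series runs from 403.5 at the edge to 465.6 per Mb and the gap series stays between 232.6 and 244.1 per Mb.

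Measured in bp from the edge, density varied more on the H3K27me3 peaks than in the gaps. On the peaks it was not lowest at the edge itself. Over all domains, on-peak density was 453.2 per Mb (403.6 to 507.2) in the outermost 500 bp and 280.2 (218.8 to 353.4) in the next 500 bp. It was 300.2 from 1000 to 2500 bp and 602.9 beyond 50 kb. Gap density in the same steps was 280 (237.4 to 328.04), 226.7, 227 and 266.8 per Mb. The 127 domains of 50 kb or more were taken alone, which leaves out short domains but does not make the lengths equal. Their on-peak density was 397.2 per Mb (294.8 to 523.6) in the first 1 kb and 347.7 (291.6 to 411.6) from 1 to 5 kb. It was 446.1 from 5 to 10 kb, 451 from 10 to 25 kb and 532.8 (507.5 to 559.2) beyond 25 kb, where the longest domains contribute most. The gap density in the same steps was 210.7 (138.9 to 306.6), 251.7, 270.1, 245.7 and 258.6 (239.04 to 279.3) per Mb, with overlapping intervals. Within length classes the on-peak ratio of outer to central density was 0.934 (0.834 to 1.05) in domains of 50 to 100 kb and 0.993 (0.903 to 1.09) in those of 100 kb or more, and both intervals include 1. On the far side of the edge, ASH2 density was 243.6 per Mb (216.7 to 273.01) in the first 500 bp outside a domain, 310.3 (279.8 to 343.2) in the next 500 bp, 222.6 beyond 50 kb, and 255.9 to 302.1 in between. H3K4me3 was present at 4.62% of ASH2 peaks over whole domains, at 9.34% of those 500 to 1000 bp inside the edge and at 7.46% in the last 500 bp inside. It was at 14.5% in the first 500 bp outside and 23.3% in the next 500 bp.

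ASH2 peaks on H3K27me3 peaks were slightly wider than those in gaps, and both were narrower than those outside domains. The median width was 221 bp (212 to 230) on peaks, 189 bp (177 to 200) in gaps and 250 bp (245 to 255) outside. The difference of 32 bp between both places in the domains ran from 18.5 bp on 2L to 62 bp on 2R. Its limits were formed by subtracting the opposite limits of both medians, which gives a wider range than a direct interval of the difference. The range was 12 to 53 bp over all arms. On each single arm it included 0, which in part follows from this construction, so a difference on single arms is left undecided. The difference over all arms came with fewer peaks under 100 bp on the mark, 30.1% against 34.6% in gaps. Without those narrow peaks the difference was -4 bp, and in the wider 50% of the list it was -17 bp. With gaps of up to 1000 bp joined it was 72 bp, and with any overlap counted as on-peak 104 bp. Wide ASH2 peaks touch H3K27me3 more often, so counting any overlap enlarges the width difference by construction. At the wide end the order was the opposite, since 3.78% of on-peak and 5.75% of gap ASH2 peaks were 800 bp or more, against 10.02% outside domains.

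Placement varied with ASH2 width, and the widest ASH2 peaks were nearly evenly spread over both places of the domains as defined here (each class includes its lower limit). The density ratio was 1.51 (1.38 to 1.66) for ASH2 peaks under 50 bp, 1.77 for those of 50 to 100 bp and 1.85 for those of 100 to 200 bp. It was 2.13 for those of 200 to 300 bp, 2.10 for those of 300 to 500 bp and 2.15 (1.87 to 2.48) for those of 500 to 800 bp. For the 422 of 800 bp or more it was 1.21, with an interval of 0.993 to 1.47. This pools 229 without an active mark (defined below), at 1.63 (1.25 to 2.13), and 193 with one, at 0.835 (0.610 to 1.13). With gaps of up to 1000 bp joined, the ratio for all those of 800 bp or more was 2.38 (1.47 to 4.04). The near-even spread of the widest ASH2 peaks thus did not hold under that definition.

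Whole ASH2 peaks lay in 3 ways. Wholly on an H3K27me3 peak were 3289 (36.7%), wholly in a gap 3379 (37.7%) and across a boundary 2289 (25.6%). Those across a boundary were the widest, with a median of 350 bp (340 to 361), against 145 bp (137 to 158) and 142 bp (134 to 153). They also overlapped Ser5P most often, at 10.9% (9.67 to 12.3), compared with 6.36% (5.56 to 7.24) wholly in gaps and 2.58% (2.07 to 3.19) wholly on peaks. The 3 kinds were not compared at matched width.

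The widest ASH2 peaks illustrate each position. The widest with its midpoint on the mark was on 3L from 5941656 to 5944276 (2621 bp). It reached far beyond an H3K27me3 peak of 656 bp, was covered by H3K27me3 over 25% and by Ser5P over 20.7%, and had its midpoint 11581 bp from the domain edge. The next, on the X from 5905520 to 5908004 (2485 bp), had Ser5P over 65.8%, Ser2P over 54.8% and H3K4me3 over 49.5% of its length. The third, on 3L from 5849113 to 5851399 (2287 bp), lay wholly within an H3K27me3 peak of 4948 bp and overlapped no active mark. In gaps, the widest was on 3R from 10480118 to 10483045 (2928 bp), with H3K4me3 over 39.8% and Ser5P over 26% of its length. H3K27me3 lay over 47% of it, and its midpoint was 87 bp from an H3K27me3 boundary. The second, on the X from 1375534 to 1377940 (2407 bp), began outside its domain, which starts at 1376043, and had its midpoint 694 bp inside that edge. It carried all 4 active marks over 63.5 to 79.4% of its length and H3K27me3 over 21.6%. The third, on 2L from 14556476 to 14558613 (2138 bp), spanned a whole gap of 618 bp inside the second longest domain, with H3K27me3 over 54.9% of its length and no active mark.

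Active marks were present at few ASH2 peaks in domains, and at a smaller share of those on H3K27me3 peaks than of those in gaps. The active marks counted here are Ser5P, the polymerase form typical of promoters, Ser2P, the elongating form, H3K4me3 and H3K36me3, the mark of transcribed gene bodies. At least 1 of these 4 overlapped 7.71% of on-peak ASH2 peaks (6.97 to 8.51) and 12.2% of those in gaps (11.2 to 13.2), against 31.2% outside domains. Per Mb the order was not the same, since ASH2 peaks with an active mark had an on-peak to gap ratio of 1.16 (1.01 to 1.33, alternatives below). The marks' own peaks covered few bases. Ser5P covered 2.01% of on-peak and 1.52% of gap bases, and H3K4me3 1.58% and 1.27%. Ser2P covered 2.76% and 1.34%, and H3K36me3 0.580% and 1.45%. Ser5P was present at 5.01% of ASH2 peaks on H3K27me3 peaks and 7.41% of those in gaps, a difference of 2.41 percentage points (1.41 to 3.42). H3K4me3 was present at 3.36% and 6.04%, a difference of 2.68 points (1.80 to 3.58). H3K36me3 was at 0.444% and 2.82% (2.37 points, 1.86 to 2.94). Ser2P was at 3.51% and 3.93% (0.424 points, -0.359 to 1.22), an interval that includes 0. With H3K27me3 joined over gaps of up to 1000 bp only, the Ser5P difference was -0.0360 points (-1.82 to 2.40) and the H3K4me3 difference -1.13 points (-2.19 to 0.601). In the first 50% of entries of both lists the H3K4me3 difference was -1.84 points (-3.59 to 0.00164), so these directions changed with the domain definition or the entries used. Outside domains these shares were 13.7% for Ser5P, 20.8% for H3K4me3, 13.8% for H3K36me3 and 9.45% for Ser2P. The order by place also changed with distance from the domain edge. In the outermost 500 bp, an active mark was at 13.9% of 303 on-peak and 9.80% of 153 gap ASH2 peaks. Beyond 50 kb it was at 8.53% and 7.27%. In every step between, the gap share was the higher. No intervals were computed for these shares.

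The arms did not all share these differences. Ser5P was higher in gaps by 4.004 points on 3R (2.10 to 5.94), 3.45 on 2L, 2.23 on the X and 1.79 on 3L, whereas on 2R the difference was -0.275 points (-3.53 to 3.10). The interval on 3L also includes 0. For H3K4me3 the difference was 5.88 points on 3R (3.95 to 7.84) and 4.03 on the X (1.84 to 6.22). On the other arms it was 0.148 on 2L, 1.04 on 3L and -1.62 on 2R, with intervals that include 0. Without 3R the H3K4me3 difference was 1.32 points. The H3K36me3 difference was likewise 4.10 points on 3R and 4.14 on the X, and between 0 and 0.606 on the other 3 arms. On 3R and the X, H3K27me3 peaks filled less of the domains, 34.7% and 30.4% of bases, than on the other arms (40.8 to 47.6%). The part of this in the arm differences was not tested.

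ASH2 peaks within the same class of width still differed in active marks by place, although widths inside a class were not matched. Of those of 300 to 500 bp, 16.8% in gaps and 10.03% on peaks had an active mark, a difference of 6.73 points (3.74 to 9.80). Of those of 800 bp or more, 52.7% and 36.3% had one (16.4 points, 6.77 to 25.5). The smallest difference, 1.94 points (0.722 to 3.20), was among those under 100 bp. For Ser5P alone the difference was 4.76 points (2.37 to 7.28) at 300 to 500 bp. At 500 to 800 bp and at 800 bp or more it was 2.55 and 6.58 points, with intervals that include 0. Under 100 bp it was 0.458 points (-0.322 to 1.27). For H3K4me3 the difference under 100 bp was 0.537 points (-0.0911 to 1.22), and in the wider classes its intervals lay above 0.

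Seen the other way, ASH2 peaks without an active mark lay on H3K27me3 more often than those with one, an order that was not kept when gaps of up to 1000 bp were joined. The 8076 without any had a density ratio of 1.94 (1.85 to 2.02), and 54.1% lay on peaks. The 881 with one had a ratio of 1.16 (1.01 to 1.33) and 41.4% on peaks, near the base share of 37.8%. This ratio was 0.915 (0.814 to 1.03) when gaps of up to 10000 bp were joined, 0.982 (0.821 to 1.17) in the first 50% of ASH2 entries and 3.07 (2.11 to 4.62) with gaps of up to 1000 bp. There the ratio without an active mark was 2.68 (2.42 to 2.97), so the order of both ratios turned and their intervals overlapped. In the first 50% of entries of both lists the ratio without an active mark was 1.26 (1.16 to 1.38). With one it was 1.13 (0.886 to 1.44) there, and these intervals also overlapped. By mark, the ratio was 1.64 (1.32 to 2.05) for ASH2 with Ser2P, 1.24 (1.05 to 1.48) with Ser5P and 1.03 (0.836 to 1.25) with H3K4me3. With H3K36me3 it was 0.290 (0.173 to 0.464), from 21 on-peak and 119 gap peaks. ASH2 peaks without an active mark had ratios above 1 in every width class, from 1.53 under 50 bp to 2.43 (2.06 to 2.87) at 500 to 800 bp. ASH2 peaks with an active mark had an interval above 1 in 1 class, 500 to 800 bp (1.55, 1.18 to 2.05), and a ratio of 0.835 (0.610 to 1.13) at 800 bp or more.

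**Figure D4:**
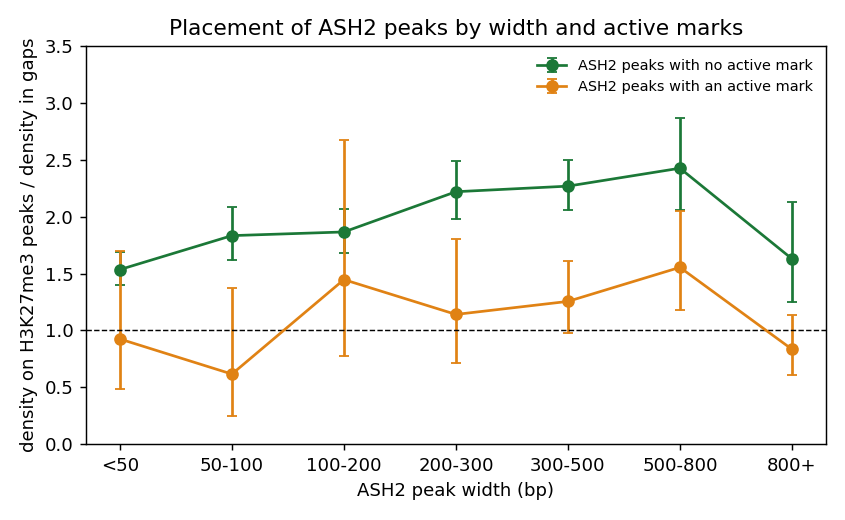
Density of ASH2 midpoints on H3K27me3 peaks divided by that in gaps (vertical axis) for 7 classes of ASH2 width in bp (horizontal axis), for ASH2 peaks with and without an overlapping active mark, with exact 95% intervals; the dashed line marks equal density. Peaks without an active mark are above the line in all classes, up to 2.43, and those of 800 bp or more with an active mark are at 0.835.

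The active marks' own peaks divided between both places in their own ways. In domains there were 564 Ser5P midpoints with a ratio of 1.03 and an interval, 0.864 to 1.22, that includes 1. The 496 of H3K4me3 had a ratio of 1.73 (1.44 to 2.07) and the 620 of Ser2P one of 2.32 (1.97 to 2.73). The 227 of H3K36me3 had the only ratio below 1, at 0.538 (0.391 to 0.732). By covered length the ratio was 1.32 for Ser5P and 1.24 for H3K4me3, so the difference between these marks in midpoints was not present in bases covered. It was 2.06 for Ser2P and 0.401 for H3K36me3. H3K4me3 midpoints were thus denser on the mark than in gaps, while the ASH2 peaks that overlapped H3K4me3 had a ratio of 1.03. ASH2 was present at 78.7% (73.2 to 83.6) of the H3K4me3 peaks centred on H3K27me3 and 84.7% (79.5 to 89) of those centred in gaps. The difference was 5.97 points (-0.867 to 12.7), an interval that includes 0. For Ser5P peaks the shares were 81.1% and 83.3%, a difference of 2.18 points (-4.14 to 8.93). For Ser2P peaks they were 44.1% and 59.1%, a difference of 15.1 points (7.09 to 22.8).

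The excess of ASH2 on H3K27me3 depended on the place of an ASH2 entry in its list. The entries are not sorted by position, and the sources do not say what sets their order. In the first of 5 equal parts of each arm's entries, the density was 46.6 per Mb on peaks and 40.6 in gaps, a ratio of 1.15 (1.02 to 1.29). The ratio was 1.29, 1.63 and 2.45 in the next parts and 2.81 (2.57 to 3.08) in the last. The on-peak density went from 46.6 to 119.5 per Mb across these parts. The gap density went from 40.6 to 54.5 and back to 42.6, and the density outside from 56.3 to 47.2. The first 50% of entries gave a ratio of 1.28 (1.20 to 1.36) and the others 2.44 (2.31 to 2.59). On single arms the first 50% gave 1.12 to 1.39, with intervals that include 1 on 2R and 3L, and the others 2.19 to 2.50.

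**Figure D5:**
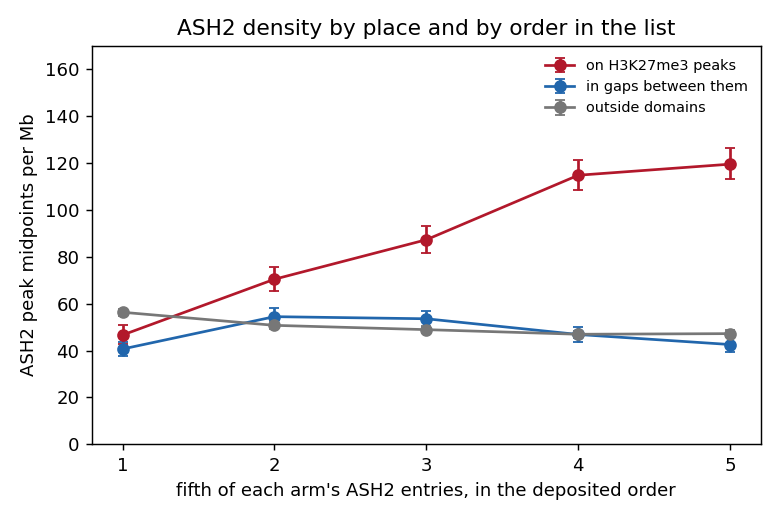
ASH2 peak midpoints per Mb (vertical axis) on H3K27me3 peaks, in gaps and outside domains, for 5 equal parts of each arm's ASH2 entries in the deposited order (horizontal axis), with exact 95% intervals. The on-peak density goes from 46.6 to 119.5 per Mb, while gaps stay between 40.6 and 54.5 and sequence outside domains between 46.9 and 56.3.

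Later entries were narrower, and those after the first of the 5 parts carried fewer active marks in domains. The order still mattered within a class of width. The on-peak median width was 581 bp in the first part and 104.5 bp in the last. Over the 5 parts an active mark was present at 22.1%, 8.29%, 6.05%, 4.84% and 5.74% of on-peak ASH2 peaks. In gaps the shares were 30.2%, 9.01%, 7.89%, 7.58% and 9.67%, so most of the fall came right after the first part. Among ASH2 peaks of 300 to 500 bp without an active mark, the ratio was 1.54 (1.36 to 1.75) in the first 50% of entries and 3.93 (3.35 to 4.61) in the rest. For those of 500 bp or more without one it was 1.82 (1.57 to 2.12) and 6.45 (4.20 to 10.2). Those under 100 bp without one lay below equal density in the first 50%, at 0.813 (0.689 to 0.956), and at 2.02 (1.86 to 2.21) in the rest. Among the 359 of 500 bp or more with an active mark in the first 50%, the ratio was 0.979 (0.785 to 1.22). For the 48 such peaks in the rest it was 4.43 (2.28 to 9.12).

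The maximum just inside H3K27me3 boundaries and the minimum just outside them were present in both parts of the list. In the first the range was smaller, and some intervals of neighbouring places overlapped theirs. In the first 50% of entries the density was 182.9 per Mb (170.9 to 195.6) at 100 to 400 bp inside an H3K27me3 peak and 100.9 (93.7 to 108.4) at 100 to 500 bp outside. Farther out in the gap it was 149.8 (140.9 to 159.1), above the 111.8 (99.8 to 124.8) found more than 400 bp inside the mark. In the other entries the same places had 359.5, 97.6, 123.3 and 208.1 per Mb. ASH2 entries from the first 50% were thus less dense deep inside H3K27me3 peaks than far out in the gaps, and the remaining entries the reverse. For the first 50%, the outermost 100 bp of a peak had 157.8 per Mb (144.5 to 172), an interval that overlaps that of the maximum. The first 100 bp of a gap had 112.4 (101.3 to 124.4), which overlaps that of the minimum. For the other entries these places had 235.6 and 138.1 per Mb.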

How the data were processed

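For each target the authors deposited the positions of the peaks of 1 library, without scores (columns per the deposited notes on file format). The build is dm3, per the submitters' processing notes. Printed starts are BED starts plus 1. Aligner, peak caller and threshold were not given in the sources used here. Depth is unknown. Entries of 0 bp counted as 1 bp in overlaps.

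Base shares were the expectation. Intervals for shares and density ratios are exact (Clopper-Pearson, scipy 1.17.1), for medians exact order-statistic intervals, and for differences of shares Newcombe's (statsmodels 0.14.6). No p-values were computed. The calculations were tested on simulated data.

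Named positions were the 5 longest domains, the 3 highest and 3 lowest ratios among domains with 20 or more ASH2 midpoints, and the 3 widest ASH2 peaks in each place. The subject and these rules were chosen with earlier results of these data known. List order, within-domain ratios and the splits by mark and width were added after seeing the data. The reference table used another genome release than dm3, so neither genes nor sequences are given.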

Additional observations from a re-analysis of the deposited data

How the results depend on the processing

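Alternatives were run for the density, covered-base and outer to central ratios, the width difference and the Ser5P and H3K4me3 differences, up to 11 of them planned and 4 added after seeing the data. The ratios within domains, by active mark and for ASH2 of 800 bp or more were added after seeing the data, with all their alternatives. Other values were computed under 1 setting, apart from splits by arm, length, width and list order. No paired analysis was possible because each target had 1 library. The density ratio of 1.84 was above 1 in all 14 alternatives run for it. It was 2.70 with a domain gap of 1000 bp, 2.02 in the wider 50% of the ASH2 list, 1.97 for ASH2 peaks of 100 bp or more, 1.73 for H3K27me3 peaks of 200 bp or more and 1.59 when any overlap counted as on-peak. It was 1.28 in the first 50% of ASH2 entries and 1.24 in the first 50% of both lists. The covered-base ratio of 1.69 was 2.30 with a gap of 1000 bp, 1.61 with 10000 bp, 1.62 without the X, 1.56 for H3K27me3 peaks of 200 bp or more, 1.28 in the first 50% of ASH2 entries and 1.20 in those of both lists. The ratio of outer to central density in gaps was 0.993 to 1.05, and on peaks 0.882 to 1.003, the lowest in the first 50% of both lists.

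The width difference of 32 bp changed sign for ASH2 peaks of 100 bp or more (-4 bp) and in the wider 50% (-17 bp). It was 72 bp with a gap of 1000 bp and 104 bp by any overlap, a rule that enlarges it by construction. The Ser5P difference of 2.41 points was -0.0360 with a gap of 1000 bp, 0.357 by any overlap, 1.03 when Ser5P had to cover the midpoint, 3.85 for ASH2 of 100 bp or more and 5.33 in the wider 50%. The H3K4me3 difference of 2.68 points was -1.13 with a gap of 1000 bp, 5.001 with 10000 bp, -1.84 in the first 50% of both lists, 0.989 by any overlap, 1.64 in domains of 20 kb or more, 1.32 without 3R, 4.10 for ASH2 of 100 bp or more and 5.91 in the wider 50%. The density ratio of ASH2 with an active mark, 1.16, was 0.915 with a gap of 10000 bp and 0.982 in the first 50% of ASH2 entries. Causes of these changes were not tested. The lists hold no reads, so a position outside a list is not shown to lack its target.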
